A study of Schizosaccharomyces pombe with 50 samples.

Results

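The Hsp31 family of the fission yeast Schizosaccharomyces pombe was described from 5 genes, hsp3101, hsp3102, hsp3103, hsp3104, and hsp3105, which are 5 of 6613 gene windows in the deposited tables. The windows were taken by gene name, and the family was chosen by its name with the Q and V values of all 8 antibodies in these tables already known. Each difference between Q and V cells of a member is therefore given as a description without a test. ChIP-seq was performed on strain Hu3112 (mat1-M smt-0 pht1-myc), in which the histone variant H2A.Z (Pht1) carries a Myc tag, so all libraries share this background. Q cells were kept for 24 h in PMG medium without nitrogen, and V cells grew at mid-log phase in PMG medium with nitrogen. The antibodies recognised the S5 and S2 phosphorylated forms of RNA pol II, H3K4me3, H3K9ac, the Myc tag of H2A.Z, H3K9me2, H3K9me3, and histone H3. Each was used on 3 libraries of Q cells and 3 of V cells, which makes 48 libraries. The 2 input libraries were not used here.

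Hsp31 proteins belong to the DJ-1/PfpI superfamily, small single-domain proteins named after human DJ-1 (PARK7) and Escherichia coli Hsp31. Members of the superfamily are known for glyoxalase activity without glutathione, which turns methylglyoxal, a toxic by-product of glycolysis, into lactate. A cysteine in a sharp turn of the fold is the nucleophile of this reaction. In budding yeast, Hsp31-type genes are known as stress and stationary phase genes. H3K4me3 marks the 5′ part of transcribed genes, H2A.Z usually sits in nucleosomes next to start sites, and the C-terminal domain of RNA pol II carries S5 phosphate early and S2 phosphate later in a transcription cycle.

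The 5 genes lie on chromosome I (hsp3102, hsp3104, and hsp3105), II (hsp3103), and III (hsp3101), and each has 1 coding exon in the RefSeq annotation (ASM294v3). The encoded proteins are 244 residues long for hsp3101, 240 for hsp3102, 261 for hsp3103, 222 for hsp3104, and 251 for hsp3105. In global alignments, hsp3101 and hsp3102 were the closest pair, with 59.2% identity over 238 aligned residues. Pairs among hsp3101, hsp3102, hsp3103, and hsp3104 lay between 44.6% and 59.2%. hsp3105 was the most distant, with 28.2% to 32.2% identity to the other 4. The DJ-1 homologue sdj1, which is not a member, had 25.7% to 30.9% identity to the 5 members.

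The coding bases around the cysteine position are shown because they separate hsp3105 from the other members. hsp3102 has 1 cysteine in all, at residue 141, and the codon aligned with it is in capitals below (coding strand, 5′ to 3′, RefSeq ASM294v3, 36 bases each).
hsp3101 (chrIII:48044-48079, minus strand): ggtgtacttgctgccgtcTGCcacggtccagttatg
hsp3102 (chrI:148498-148533, minus strand): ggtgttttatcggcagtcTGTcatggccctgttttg
hsp3103 (chrII:656608-656643, minus strand): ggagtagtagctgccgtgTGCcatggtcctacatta
hsp3104 (chrI:130680-130715, plus strand): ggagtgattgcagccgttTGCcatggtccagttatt
hsp3105 (chrI:4231276-4231311, plus strand): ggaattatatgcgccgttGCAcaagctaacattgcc
The codon encodes cysteine in hsp3101 (residue 139), hsp3102, hsp3103 (residue 162), and hsp3104 (residue 124), and the next codons encode histidine and glycine in these 4 genes. In hsp3105 the aligned residue, 149, is not a cysteine. In sdj1 the aligned residue 111 is a cysteine that histidine and glycine do not follow.

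Stretches upstream of the genes are shown for hsp3101, one of the members with more RNA pol II and H3K4me3 in Q cells. For hsp3104, shown as well, RNA pol II values over the ORF window overlapped between Q and V cells. Both stretches span bases 250 to 101 before the RefSeq gene start (ASM294v3), with motif matches in capitals.
hsp3101 (chrIII:48602-48751, minus strand): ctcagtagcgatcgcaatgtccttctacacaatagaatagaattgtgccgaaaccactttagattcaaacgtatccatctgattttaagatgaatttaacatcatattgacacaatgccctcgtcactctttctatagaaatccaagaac
hsp3104 (chrI:129920-130069, plus strand): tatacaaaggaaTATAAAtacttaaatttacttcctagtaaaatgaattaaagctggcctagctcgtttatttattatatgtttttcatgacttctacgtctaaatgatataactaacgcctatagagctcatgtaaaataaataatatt
For the other 3 genes, the motif match in the 250 bases before the RefSeq start is shown with its flanks. In hsp3102 and hsp3103 TATAAA stands on the opposite strand and reads TTTATA here, and the RefSeq models of hsp3102 and hsp3105 start at the coding sequence.
hsp3102 (chrI:149008-149029, minus strand): gaattgatTTTATAtcaataat
hsp3103 (chrII:657845-657866, minus strand): agcagtggTTTATAgtatattg
hsp3105 (chrI:4230750-4230770, plus strand): ataaatatCCCCTtttcttaa
A search of both strands of 5112 promoters of 250 bases used 6 motifs. TATAAA, the TATA box, was found in 3 of 5 members (hsp3102, hsp3103, and hsp3104) and in 44.4% of all promoters. CCCCT, the core of the stress response element of budding yeast, was found in 1 of 5 (hsp3105) and in 8.26% of all. The deposited ORF windows place the starts of hsp3102, hsp3103, and hsp3105 further upstream than RefSeq does. By those starts, the matches shown for these genes lie within the gene. The heat shock element GAANNTTC (9.49% of all promoters), the Atf1-type core TGACGT (5.52%), the GATA core GATAAG (10.2%), and the Ste11-type core TTCTTTGT (3.03%) had no match in the members' windows.

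The deposited values are reads per window divided by a size factor of the library, so each difference is set against the rest of the table, and one common to all windows would not show. ORF windows held 856936 to 20673131 reads per library (median 7441339). Of the 36-base stretches in the 5 RefSeq genes and their 200-bp flanks, 0 occur elsewhere in the genome. ChIP-seq has no strand, and ORF windows of the members overlap those of neighbours and antisense RNAs. Libraries 2 and 3 of Q cells for S5, and for S2, agree within sampling noise (0.876 and 0.98 for chi-square per degree of freedom over ORF windows), and were counted as 1 sample in means and SDs, so that n is 2 for Q cells with these antibodies. The log2 fold changes, SEs, and p-values of S5 and S2 rest on all 3 Q libraries. With the pair as 1 library and no block on replicate number, the SE of S5 was 0.24 in place of 0.18 for hsp3102 and 0.10 in place of 0.08 for hsp3101. Dropping the block alone gave 0.20 for hsp3102 and 0.08 for hsp3101. In the TSS table, the S2 column of V replicate 3 repeats the H3K9me2 column in 6612 of 6613 windows. The window of that table starts at the lower coordinate on both strands, so for hsp3101, hsp3102, and hsp3103 on the minus strand it covers the 3′ end of the ORF window, and for hsp3104 and hsp3105 the 5′ end. Of 12 nitrogen starvation genes listed as a check of the labels, H3K4me3 rose in 8 in Q cells, while S5 rose in 1, the mating pheromone gene mfm1. Of 10 growth genes, S5 fell in 3, the histone genes hht1, hhf1, and hta1, and H3K4me3 fell in 1, rpl2702. By the rule for calls given below, 19.4% of all ORF windows rose and 13.8% fell for H3K4me3. For S5, 5.17% rose and 0.714% fell.

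RNA pol II S5 over the ORF window was higher in Q cells for hsp3101, hsp3102, hsp3103, and hsp3105, and overlapped between the states for hsp3104. For hsp3101, Q libraries had values of 1047, 1040, and 1050, against 662, 544, and 567 in V libraries. The means were 1046 ± 1.19 (SD, n = 2) in Q cells and 591 ± 62.7 (SD, n = 3) in V cells, a 1.77-fold difference (log2 fold change 0.83 ± 0.08, SE). The lowest Q library lay above the highest V library. For hsp3102, Q libraries had 1256, 1209, and 1264, and V libraries 892, 553, and 490. Its log2 fold change of 0.99 ± 0.18 (SE) lay just inside the threshold of 1 used for calls. V replicate 1 stood apart from the other V libraries here, and without replicate 1 the value was 1.25 ± 0.06 (SE). Relative to H3, it was 0.84 for hsp3102 and 0.96 for hsp3101.

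For hsp3105, the member without the aligned cysteine, S5 values were 1203, 1221, and 1217 in Q libraries and 901, 764, and 694 in V libraries (log2 fold change 0.63 ± 0.09, SE). For hsp3103, they were 1209, 1138, and 1080 in Q libraries and 939, 799, and 834 in V libraries, a smaller difference (0.42 ± 0.06, SE). Over hsp3104, the libraries of both states overlapped, with 840, 774, and 837 in Q and 793, 831, and 826 in V libraries (0.00 ± 0.06, SE). Every Q library lay above every V library in 4 of 5 members, and in 36.3% of all ORF windows tested. A window was called at a limma adjusted p below 0.05, if its log2 fold change was also above 1 or below −1. By this rule 0 of 5 members were called for S5, where 5.17% of all ORF windows were called higher in Q cells and 0.714% lower. The median log2 fold change was 0.63 over the 5 members and 0.00 over all windows tested.

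RNA pol II S2 over the ORF window was higher in Q cells for the same 4 genes, with smaller log2 fold changes than S5. Its log2 fold change was 0.64 ± 0.18 (SE) for hsp3102, 0.48 ± 0.08 for hsp3101, 0.34 ± 0.08 for hsp3103, 0.33 ± 0.12 for hsp3105, and 0.08 ± 0.08 for hsp3104. For hsp3102, S2 values were 1520, 1584, and 1571 in Q libraries, against 1312, 1107, and 695 in V libraries. The V libraries of this gene spread widely, from 695 in replicate 3 to 1312 in replicate 1. Without replicate 3, the S2 value was 0.36 ± 0.08 (SE) for hsp3102 and 0.16 ± 0.08 (SE) for hsp3105. For hsp3101, they were 1287, 1257, and 1245 in Q libraries and 1022, 880, and 831 in V libraries. Q libraries lay above V libraries in these 4 of 5 members, and in 28.5% of all ORF windows. For S2, 0 of 5 members were called, beside 1.44% of all windows called higher in Q cells and 0.0912% called lower. The members had a median of 0.34, beside 0.01 over all windows.

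**Figure D1:**
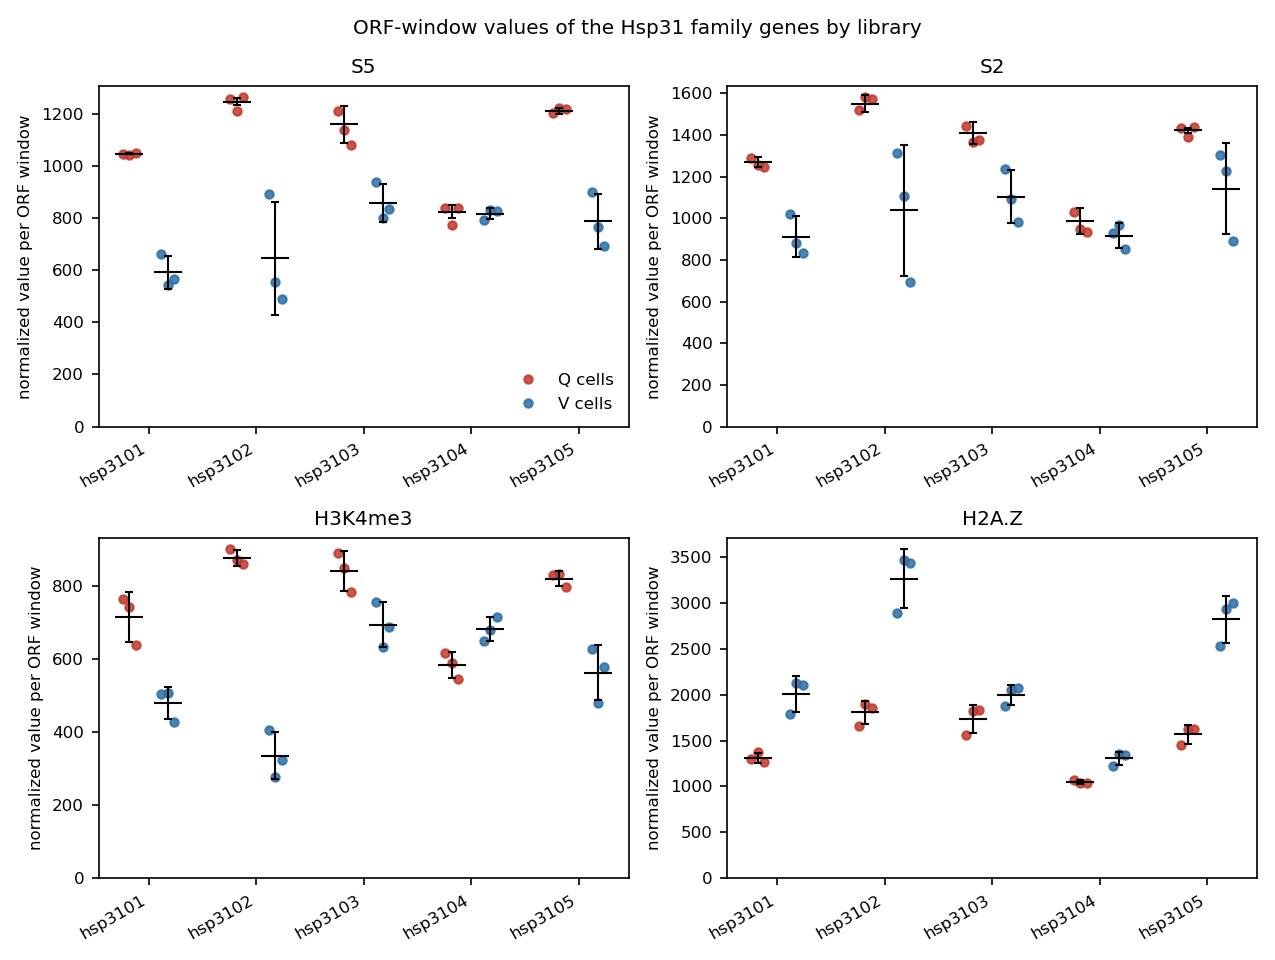
Normalized values per ORF window (y axis, from 0) of the 5 Hsp31 family genes for S5, S2, H3K4me3, and H2A.Z, with Q libraries in red and V libraries in blue. Points are libraries, and black lines are the mean ± SD (n = 3, and n = 2 for Q cells with S5 and S2, where replicates 2 and 3 count as 1). S5 of hsp3102 lies at 1209 to 1264 in Q cells and at 490 to 892 in V cells, while the states overlap for hsp3104.

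H3K4me3 over the ORF window was higher in Q cells for the same 4 genes and lower for hsp3104. The mark differed most over hsp3102, where Q libraries had 902, 872, and 860, against 406, 278, and 323 in V libraries. The means were 878 ± 21.7 in Q cells and 336 ± 65.1 in V cells (SD, n = 3 each), a 2.64-fold difference (log2 fold change 1.40 ± 0.12, SE). For hsp3101, the values were 766, 743, and 640 in Q libraries and 504, 508, and 429 in V libraries (0.58 ± 0.07, SE). For hsp3105, they were 830, 834, and 797 in Q libraries and 629, 481, and 578 in V libraries (0.55 ± 0.10, SE). Q and V libraries did not overlap in either gene.

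The ORF-window difference of hsp3103 was smaller, with 892, 849, and 784 in Q libraries and 758, 634, and 689 in V libraries (0.28 ± 0.08, SE). hsp3104 went the other way, with 617, 589, and 547 in Q libraries and 651, 679, and 717 in V libraries (−0.22 ± 0.09, SE). Q libraries lay above V libraries in 4 of 5 members and in 42.9% of all ORF windows. Of the 5 members, 1 (hsp3102) was called, higher in Q cells, beside 19.4% of all windows called higher and 13.8% called lower. The median log2 fold change was 0.55 over the members and −0.01 over all windows tested.

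H2A.Z was lower in Q cells over all 5 members. Over hsp3102, Q libraries had 1660, 1903, and 1859, against 2890, 3464, and 3436 in V libraries (log2 fold change −0.85 ± 0.04, SE). Over hsp3105, they had 1449, 1631, and 1622, against 2526, 2938, and 3003 in V libraries (−0.85 ± 0.04, SE). hsp3101 had 1302, 1370, and 1266 in Q libraries and 1785, 2133, and 2102 in V libraries (−0.61 ± 0.06, SE). The values were −0.31 ± 0.06 for hsp3104 and −0.21 ± 0.04 for hsp3103 (log2 fold change, SE).

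Every Q library lay below every V library in 5 of 5 members for H2A.Z, as in 40.7% of all ORF windows. None of the members was called (0 of 5), beside 2.65% of all windows called in either direction. The median was −0.61 over the members and −0.01 over all windows. Relative to H3, the value of hsp3102 was −1.01 ± 0.13 (SE), past the threshold, and that of hsp3103 was −0.11 ± 0.10 (SE), with overlapping libraries.

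The other 4 antibodies gave differences between −0.25 and 0.26 on the log2 scale over the ORF windows of the members. For H3K9ac, a mark of active chromatin, log2 fold changes ran from −0.25 ± 0.10 (SE, hsp3105) to 0.07 ± 0.12 (SE, hsp3101), and Q and V libraries overlapped in each member. For hsp3105, H3K9ac values were 1898, 2256, and 2686 in Q libraries and 2342, 2724, and 3019 in V libraries. H3K9me2 and H3K9me3, marks of heterochromatin, lay between −0.06 and 0.26 on the log2 scale, with overlapping libraries in each member. Histone H3 lay between −0.13 ± 0.04 (SE, hsp3101) and 0.16 ± 0.07 (SE, hsp3102). Over hsp3101, H3 values were 1222, 1262, and 1263 in Q libraries and 1314, 1381, and 1415 in V libraries, the only member without overlap for this antibody. For each of these antibodies 0 of 5 members were called. The shares of all windows called in either direction were 0% for H3K9ac, 0.928% for H3K9me2, 0.669% for H3K9me3, and 1.38% for H3. For H3K9ac, 932 of 6580 windows had an unadjusted p under 0.05 in limma, and edgeR called 0 and DESeq2 2. In the shorter windows of the TSS table, the differences were wider. H3K9me3 was 0.48 ± 0.18 for hsp3102 and 0.44 ± 0.18 for hsp3103 (log2 fold change ± SE), without overlap between Q and V libraries. For hsp3105, H3K9me3 was −0.58 ± 0.21 and H3K9ac 0.70 ± 0.26, both with overlapping libraries. For hsp3101, H3K9ac was 0.27 ± 0.13 and H3 −0.34 ± 0.13, and for hsp3102 H3 was 0.19 ± 0.10, without overlap in these 3 cases. The share of all windows without overlap was not counted for these antibodies, so no baseline stands beside these cases.

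**Figure D2:**
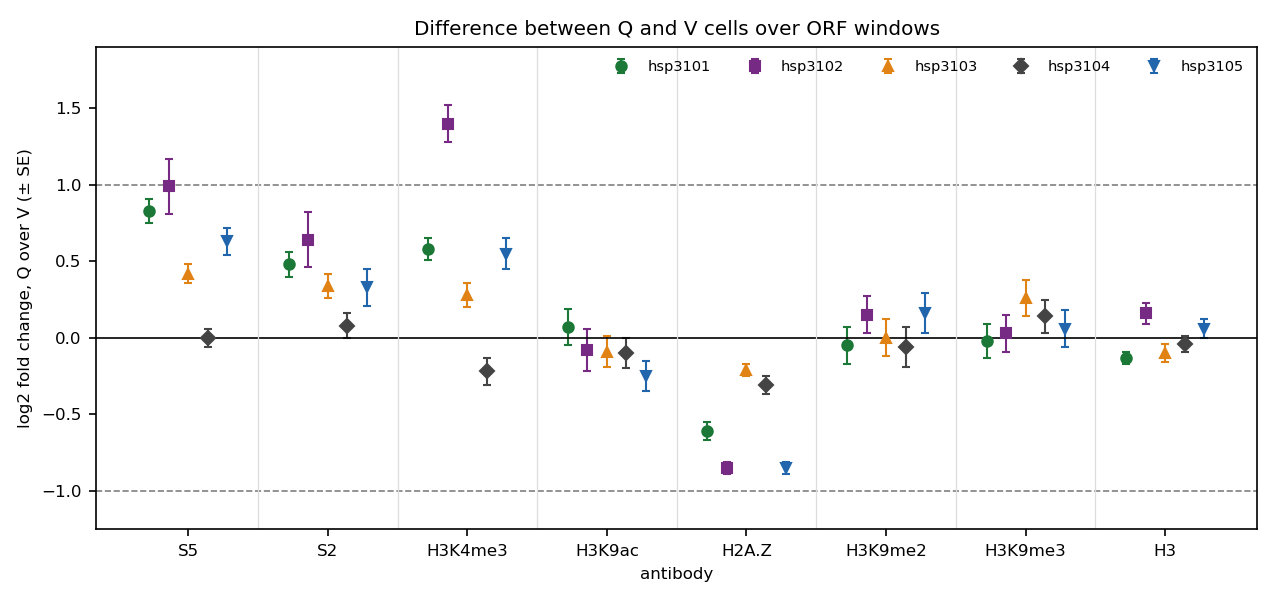
Log2 fold change of Q over V cells (y axis, ± SE) over the ORF window for each antibody (x axis) and each of the 5 genes (symbols), with dashed lines at −1 and 1. hsp3102 lies at 1.40 for H3K4me3, hsp3104 lies closest to 0 for S5 (0.00), and all 5 genes lie below 0 for H2A.Z.

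The levels of S5, S2, H3K4me3, and H2A.Z spanned a narrower range over the members in Q cells than in V cells. So did those of H3 (1.32-fold in Q and 1.61-fold in V cells) and H3K9me2 (1.28-fold in Q and 1.46-fold in V cells). Those of H3K9ac (1.37-fold in Q and 1.3-fold in V cells) and H3K9me3 (1.55-fold in Q and 1.42-fold in V cells) did not. Over all windows with a mean value of at least 50 in each group, the range of S5 narrowed too. There the 90th percentile of S5 per kb was 1.64 times the 10th in Q cells and 2.79 times in V cells. Per kb of ORF window, the order of S5 levels in Q cells was hsp3101 (633 ± 0.722), hsp3104 (541 ± 16.3), hsp3103 (537 ± 32.8), hsp3105 (517 ± 4.79), and hsp3102 (463 ± 5.12, SD, n = 2 each). hsp3101 stood apart at the top and hsp3102 at the bottom, and the 3 between them overlapped from one to the next. In V cells the order was hsp3104 (537 ± 13.5), hsp3103 (397 ± 33.7), hsp3101 (358 ± 37.9), hsp3105 (336 ± 44.9), and hsp3102 (239 ± 80.2, SD, n = 3 each), and only hsp3104 stood apart from its neighbour in this order. Over the means of all 3 libraries, the highest level was 1.37 times the lowest in Q cells and 2.24 times in V cells. The window of hsp3102 is 2694 bp long, while its RefSeq gene has 898 bp, so its levels per kb include bases outside that gene. In the 401 bp at the 3′ ends, S5 per kb in Q cells was 664 for hsp3102, 690 for hsp3101, and 537 for hsp3103. In V cells these values were 365, 367, and 357.

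For H3K4me3 per kb, the range in Q cells was 1.33-fold, from 433 ± 40.9 for hsp3101 to 326 ± 8.06 for hsp3102. In V cells it was 3.6-fold, from 449 ± 21.7 for hsp3104 to 125 ± 24.2 for hsp3102, and both stood apart from their neighbours in the order. For H2A.Z per kb, Q cells ran from 805 ± 71.2 (hsp3103) to 669 ± 43.7 (hsp3105), a 1.2-fold range. In V cells hsp3101 (1214 ± 117), hsp3102 (1211 ± 120), and hsp3105 (1205 ± 110) overlapped at the top, and hsp3103 (927 ± 50.4) and hsp3104 (858 ± 49.6) overlapped below them. hsp3101 had the highest H3 level per kb, 756 ± 14.1 in Q and 829 ± 31.1 in V cells, and hsp3102 the lowest, 574 ± 12.4 in Q and 516 ± 52.8 in V cells, overlapping hsp3105.

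The levels were also set against histone H3. Divided by the mean H3 value of the same cell state, S5 of hsp3101 was 0.838, 0.832, and 0.841 in Q libraries and 0.483, 0.397, and 0.414 in V libraries. For hsp3102, the ratio was 0.812, 0.782, and 0.817 in Q libraries and 0.642, 0.398, and 0.353 in V libraries. For hsp3104, it was 0.84, 0.773, and 0.836 in Q libraries and 0.772, 0.809, and 0.804 in V libraries. As means of all 3 libraries, the 5 members lay between 0.804 and 0.884 in Q cells, a 1.1-fold range, and between 0.432 and 0.795 in V cells, a 1.84-fold range. The ratio in V cells was lowest for hsp3101 and hsp3102, the members with the largest S5 differences, and highest for hsp3104.

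The same narrow band was found for H3K4me3, with 0.568 to 0.602 over the members in Q cells and 0.242 to 0.664 in V cells, and for S2, with 0.971 to 1.03 in Q cells and 0.665 to 0.893 in V cells. Only hsp3104 had a lower ratio of H3K4me3 to H3 in Q cells (0.584 ± 0.0356) than in V cells (0.664 ± 0.0321, SD, n = 3 each). The narrow band in Q cells was shared by the other windows. Over 6387 windows with a mean value of at least 50 in each group, the 90th percentile of the ratio of S5 to H3 was 1.13 times the 10th in Q cells and 2.81 times in V cells. For H3K4me3 these ranges were 1.28 and 7.53. The median of all windows in Q cells was 0.836 for S5 and 0.597 for H3K4me3, within the band of the members. Whether the Q values of S5 and H3K4me3 stood above an input was not tested.

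**Figure D3:**
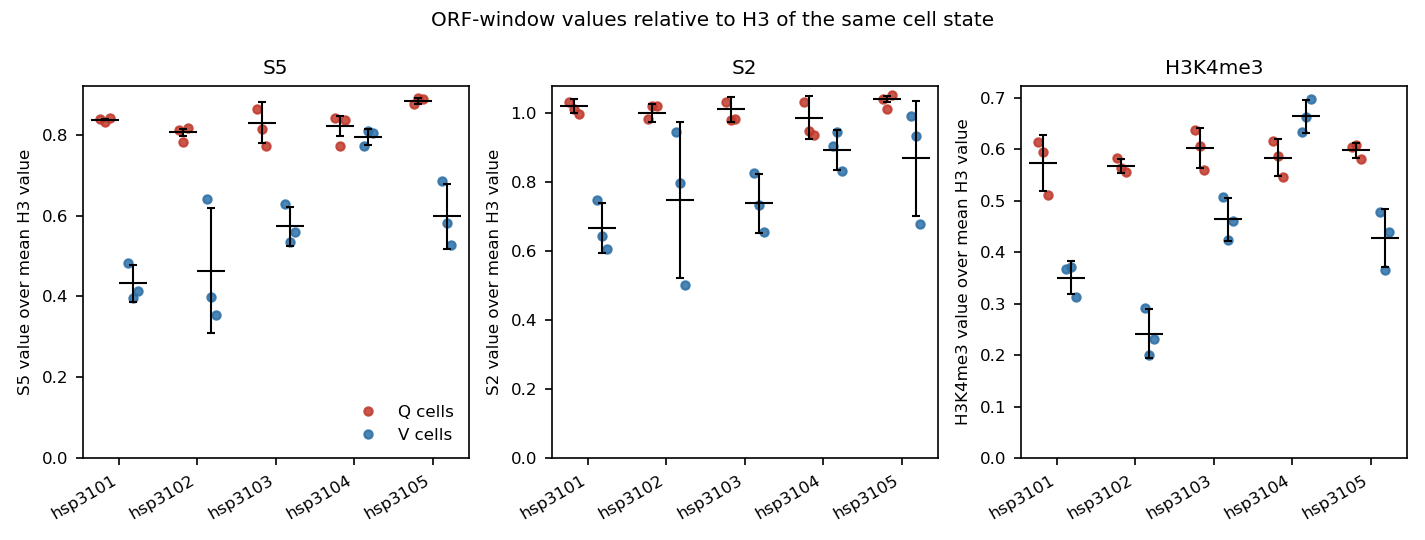
Value of each S5, S2, and H3K4me3 library divided by the mean H3 value of the same cell state (y axis, from 0) over the ORF window of each gene, Q libraries in red and V libraries in blue, with mean ± SD (n = 3, and n = 2 for Q cells with S5 and S2). In Q cells the 5 genes lie between 0.804 and 0.884 for S5 and between 0.568 and 0.602 for H3K4me3, and in V cells they are spread from 0.432 to 0.795 and from 0.242 to 0.664.

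The H3K4me3 reads of a member were also placed within its window. The 401-bp window of the TSS table is part of the ORF window, and reads in it were set against those in the rest, a split made after seeing the values. At the 3′ end of hsp3101, H3K4me3 per kb was 475, 466, and 394 in Q libraries, against 137, 96.5, and 74.4 in V libraries. In the rest of hsp3101, it was 460, 444, and 385 in Q libraries and 359, 374, and 319 in V libraries. The 3′ window, which is 24.3% of the length, held 24.9% ± 0.221 of the H3K4me3 reads of hsp3101 in Q cells and 8.5% ± 2.12 in V cells (SD, n = 3 each). For H3 it held 25.3% ± 0.598 in Q cells and 27% ± 0.831 in V cells.

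For hsp3103 the gap was wider. At its 3′ end, H3K4me3 per kb was 450, 426, and 379 in Q libraries and 130, 35.9, and 68 in V libraries, while in the rest it was 405, 387, and 360 in Q libraries and 402, 353, and 377 in V libraries, which overlapped. The window, 18.6% of the length, held 19.9% ± 0.438 of the H3K4me3 reads in Q cells and 4.36% ± 2.32 in V cells (SD, n = 3 each). V replicate 1 was the highest of the V libraries at the 3′ ends of hsp3101, hsp3102, and hsp3103. hsp3105 lies on the plus strand, and its 401-bp window is at the 5′ end of the ORF window. This window (4230415 to 4230815, ASM294v2) lies wholly before the RefSeq gene start at 4230850 (ASM294v3). In this window, H3K4me3 per kb was 201, 218, and 271 in Q libraries and 122, 8.98, and 44.6 in V libraries, with V replicate 1 again the highest. V replicate 1 of H3K4me3 held 1700594 reads in ORF windows, against 5395526 in V replicate 2 and 5675721 in V replicate 3. In the TSS table, V values of hsp3105 were 50.1, 3.55, and 16.5, where 1 read had a value of 3.13, 0.888, and 0.787. These values, and those of hsp3103 (53.2, 14.2, and 25.2), rest on few reads. In the rest of hsp3105, H3K4me3 per kb was 375 ± 17.8 in Q cells and 278 ± 28 in V cells (SD, n = 3 each).

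hsp3104, on the plus strand as well, had the opposite difference at its 5′ end. H3K4me3 per kb was 296, 294, and 345 in Q libraries, against 442, 431, and 502 in V libraries, with no overlap. In the rest of hsp3104 the states overlapped, with 410 ± 41.3 in Q cells and 445 ± 19.7 in V cells (SD, n = 3 each). Within that rest, the TSS-table window of SPAC11D3.14c covers the 3′ part of hsp3104. There, H3K4me3 per window was 195, 193, and 123 in Q libraries, against 62.6, 39.1, and 38.6 in V libraries. Thus H3K4me3 was higher in Q cells near the 3′ end of hsp3104, as at the 3′ ends of hsp3101, hsp3102, and hsp3103. For hsp3102, H3K4me3 was higher in Q cells in both stretches. It was 526, 463, and 371 per kb in Q libraries and 206, 119, and 157 in V libraries at the 3′ end, and 302, 300, and 310 in Q libraries and 141, 100, and 113 in V libraries in the rest. In the fit of the TSS table, the log2 fold changes of H3K4me3 were 2.60 ± 0.39 for hsp3103, 2.54 ± 0.66 for hsp3105, 2.16 ± 0.29 for hsp3101, 1.54 ± 0.22 for hsp3102, and −0.52 ± 0.13 (SE) for hsp3104.

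**Figure D4:**
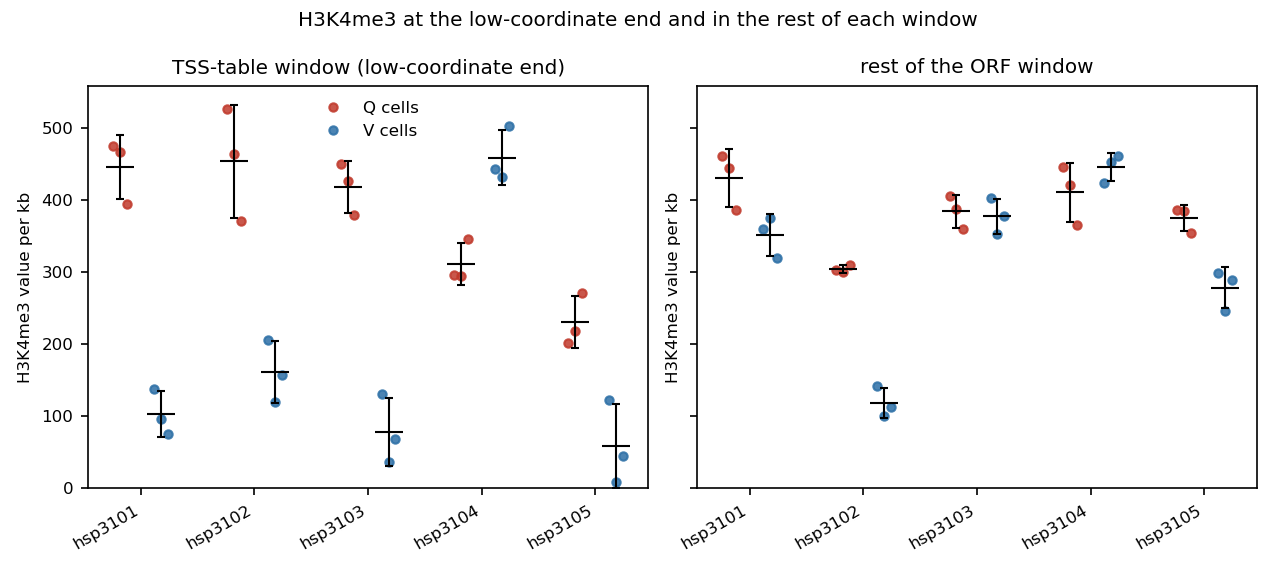
H3K4me3 value per kb (y axis, from 0) in the 401-bp window of the TSS table at the low-coordinate end of each gene (left) and in the rest of its ORF window (right), with Q libraries in red, V libraries in blue, and mean ± SD (n = 3 each). The low-coordinate end is the 3′ end of hsp3101, hsp3102, and hsp3103 and the 5′ end of hsp3104 and hsp3105, and the gap between the states of hsp3103 is wide on the left (418 in Q and 77.8 in V cells) and closed on the right (384 and 377).

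H2A.Z differed along the windows too. In the 3′ window of hsp3103 it was higher in Q cells, 718 ± 62 per kb against 591 ± 9.85 in V cells, while in the rest it was lower in Q cells, 824 ± 98.5 against 1004 ± 63.8 (SD, n = 3 each). For hsp3105, H2A.Z at the 5′ end overlapped between states (456 ± 112 in Q and 518 ± 37 in V cells), and the rest held 713 ± 30.3 in Q and 1346 ± 140 in V cells. hsp3104 was lower in Q cells in both stretches, with 611 ± 59.2 against 936 ± 72.9 per kb at its 5′ end, but in the window of SPAC11D3.14c at its 3′ part H2A.Z was 371, 292, and 274 in Q libraries and 266, 246, and 260 in V libraries. In the TSS table, S5 over hsp3104 was 0.35 ± 0.16 (SE) on the log2 scale, without overlap between Q and V libraries. Q libraries had 160, 162, and 193, against 157, 122, and 125 in V libraries. H3 there was 0.23 ± 0.19 (SE), with overlapping libraries. In the 5′ window of hsp3105, S5 overlapped, with 110, 138, and 147 in Q libraries and 124, 82.2, and 55.5 in V libraries. S2 in that window was −0.67 ± 0.17 (SE) without replicate 3, opposite in sign to the ORF window. The share of all TSS windows without overlap was not counted.

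The annotation behind the windows bears on these values. The deposited ORF window of hsp3102 (chromosome I, 147838 to 150531, ASM294v2) is 2694 bp long, while the RefSeq gene has 898 bp and starts at its coding sequence. SPAC5H10.03 on the other strand overlaps 1286 bp of it. Over SPAC5H10.03, whose window reaches past the upstream end of that of hsp3102, the log2 fold change was −0.09 ± 0.12 (SE) for S5 and 0.36 ± 0.11 for H3K4me3. SPAC5H10.01 and its antisense RNA at the other end had 0.91 ± 0.13 and 0.95 ± 0.14 (SE) for S5, close to hsp3102, but 0.19 ± 0.08 and 0.24 ± 0.08 for H3K4me3. hsp3102-antisense-1, which lies wholly in the window, had 0.94 ± 0.16 (SE) for S5 and 0.96 ± 0.13 for H3K4me3.

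The other members also share reads with neighbours. For hsp3101 (chromosome III, 47125 to 48777), hsp3101-antisense-1 covers 88.6% of the window and had nearly the same values (0.81 ± 0.10 for S5 and 0.59 ± 0.07 for H3K4me3, log2 fold change ± SE). On the 3′ side, H3K4me3 was 2.18 ± 0.24 over SPNCRNA.1099 (log2 fold change ± SE), given without a test because 642 of its 980 bp lie in the window of hsp3101. Beyond it, H3K4me3 rose 2.56 ± 0.25 over SPCC757.02c (adjusted p = 0.00078, limma), where S5 rose 1.01 ± 0.05 (adjusted p = 0.0043). On the 5′ side, H3K4me3 rose 1.55 ± 0.17 over SPNCRNA.451 (adjusted p = 0.00097, limma), which does not overlap hsp3101. For hsp3105 (chromosome I, 4230415 to 4232757), S5 had 0.84 ± 0.16 (SE) over hsp3105-antisense-1 at its 5′ part and −0.06 ± 0.10 over SPNCRNA.243, of whose 1565 bp 1146 lie in the 3′ part of hsp3105. H3K4me3 was 1.43 ± 0.18 over the antisense RNA, of whose 1699 bp 1612 are shared with hsp3105, and 0.14 ± 0.10 over SPNCRNA.243. The TSS-table window of SPNCRNA.243, which lies within hsp3105, had S5 values of 274, 228, and 228 in Q libraries and 172, 161, and 150 in V libraries. H3K4me3 there was 180, 171, and 152 in Q libraries and 93.9, 80.8, and 93.7 in V libraries, so both were higher in Q cells in this stretch. H2A.Z was low in Q cells over the antisense RNA (−0.70 ± 0.04) and over SPNCRNA.243 (−0.89 ± 0.05). Next to it, fip1 had −0.64 ± 0.11 (SE) for S5. The window of cdc22, encoding the large subunit of ribonucleotide reductase, is only 443 bp long and had −0.35 ± 0.12. Whether the windows of neighbours, list genes, and sdj1 cover whole genes was not tested.

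hsp3103 (chromosome II, 655917 to 658073) overlaps none of its nearest 4 windows. H3K4me3 rose over the 814-bp window of dsc1 on the 3′ side of hsp3103 (2.41 ± 0.22, adjusted p = 0.00069, limma), where S5 was 0.05 ± 0.08. At its 5′ side, the methionine tRNA gene had 0.99 ± 0.15 for S5, hip4 0.25 ± 0.07, and elg1, beyond dsc1, 0.42 ± 0.06 (log2 fold change ± SE), and none of them passed the threshold. hsp3104 (chromosome I, 129948 to 131468) lay below its neighbours. All 4 of them had positive log2 fold changes, 0.47 to 0.59 for S5 and 0.58 to 0.90 for H3K4me3, beside 0.00 and −0.22 for hsp3104. Of these, SPAC11D3.14c and its antisense RNA overlap 479 and 466 bp of its window.

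Across the 48 libraries, with the mean of each antibody taken out, hsp3104 lay apart from the other 4 members. Pearson's r was 0.92 between hsp3102 and hsp3105, 0.86 between hsp3101 and hsp3102, and 0.75 to 0.80 for the other pairs of these 4. For hsp3104, r was between −0.05 and 0.15 with the other members. With Q replicates 2 and 3 of S5 and of S2 as 1 library each (46 libraries), r was 0.73 to 0.91 among the 4 and −0.05 to 0.16 for hsp3104. sdj1, the DJ-1 homologue, had r of −0.15 to −0.56 with the members. All genes share libraries and size factors in these values, so r is given as a description. The genes most alike in pattern were SPAC11D3.10, atd3, and alr1 for hsp3101 (r of 0.917, 0.915, and 0.899), and alr1, ime4, and mug135 for hsp3102 (0.954, 0.953, and 0.946). For hsp3105 they were SPCC737.04, SPCC13B11.03c, and SPCC576.19c (0.923, 0.917, and 0.914), for hsp3103 mug24, meu25, and jmj1 (0.852, 0.850, and 0.842), and for hsp3104 SPCC18.13, crp79, and cnp20 (0.818, 0.807, and 0.774). SPAC11D3.10, the gene most alike to hsp3101, is a neighbour of hsp3104.

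Other genes of methylglyoxal and redox metabolism are set beside the family. glo1, encoding the glutathione-dependent glyoxalase I, had S5 values of 1089, 1116, and 1164 in Q libraries and 1158, 1159, and 1172 in V libraries (log2 fold change −0.05 ± 0.05, SE, adjusted p = 0.44, limma). Its H2A.Z value was 0.54 ± 0.05 (SE), opposite in sign to that of all 5 members. glo2, encoding glyoxalase II, fell in H3K4me3 (−1.39 ± 0.12, SE, adjusted p = 0.00062), with 219, 289, and 298 in Q libraries and 684, 715, and 701 in V libraries. H2A.Z over glo2 was −0.57 ± 0.07 (SE), the same sign as that of the members. Over the 28 listed redox and methylglyoxal genes, H2A.Z was above 0 in 16 and below 0 in 12. sdj1 had lower S5 in Q cells, 612, 626, and 661 against 664, 764, and 768 in V libraries (−0.21 ± 0.07, SE, adjusted p = 0.054). Its H3K4me3 was 0.52 ± 0.11 and its H2A.Z 0.49 ± 0.08 (log2 fold change ± SE), neither past the threshold.

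Of 28 listed redox and methylglyoxal genes, S5 rose in 1 and the other 27 did not pass the threshold, and H3K4me3 rose in 2 and fell in 6. For S2, 0 genes passed in limma, edgeR, or DESeq2, while 16 had an unadjusted p under 0.05 in limma. The list had a median log2 fold change of −0.21 for S5 and −0.56 for H3K4me3, beside 0.00 and −0.01 over all windows. The gene that rose for S5 was ctt1, encoding catalase, with 1990, 1923, and 1817 in Q libraries and 1000, 574, and 728 in V libraries (1.35 ± 0.15, SE, adjusted p = 0.0047, limma). H3K4me3 over ctt1 rose as well (1.39 ± 0.08, adjusted p = 0.0005). Of the regulators of oxidative stress genes, pap1 rose in H3K4me3 (1.19 ± 0.08, adjusted p = 0.0005, not called relative to H3) with an S5 value of −0.56 ± 0.06, and atf1 had −0.85 ± 0.10 for H3K4me3 and 0.07 ± 0.17 for S5 (log2 fold change ± SE).

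Of 16 listed chaperone genes with a window, S5 rose in 2, S2 rose in 1, and H3K4me3 rose in 2 and fell in 2. The median S5 value of the list was −0.45, with 12 of 16 genes below 0, beside a median of 0.63 over the Hsp31 family. The 2 genes that rose for S5 encode small stress proteins. hsp9 had 929, 1396, and 1371 in Q libraries and 535, 365, and 492 in V libraries (1.40 ± 0.22, SE, adjusted p = 0.0086, limma), and hsp16 had 633, 647, and 640 in Q libraries and 410, 256, and 213 in V libraries (1.18 ± 0.20, adjusted p = 0.01). Relative to H3, hsp9 was not called for S5 or S2, and hsp16 was not called for S5 without replicate 3. For S2, hsp9 rose 1.23 ± 0.15 (adjusted p = 0.012), and hsp16 had 0.75 ± 0.21 (adjusted p = 0.056). hsf1, encoding the heat shock transcription factor, had −0.45 ± 0.08 for S5 and −0.98 ± 0.20 for H3K4me3 (log2 fold change ± SE), just inside the threshold for H3K4me3, and it was called lower in Q cells with edgeR, with library totals, relative to H3, and without replicate 2 or 3.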

How the data were processed

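ChIP-seq libraries of strain Hu3112 were compared between Q and V cells. The authors deposited a signal for each window, reads divided by a size factor of the library, in 16 tables (bcl2fastq 2.20.0.422, BWA 0.7.17, SAMtools 1.17, deepTools 3.3.2, and DESeq2, per the submitters' processing notes, on ASM294v2). Batch effects are described as removed, and replicates as biological. How the Drosophila spike-in was used, and any filter on duplicates or mapping quality, is not stated. The tables' own fold changes and p-values were not used. Whole reads were recovered in all 96 columns (largest offset 3.6e-10 reads).

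For each antibody alone, log2(value + 1) of Q over V cells was compared by limma 3.58.1 in R 4.3.3, with a trend and a block on replicate number. A window entered if 3 or more libraries (2 if a replicate was left out) reached 10, and p-values were adjusted by Benjamini-Hochberg over all windows. The fits were tested on simulated data. TSS windows held 170278 to 5319910 reads per library. Alternatives were no block, edgeR 4.0.16 and DESeq2 1.42.0 on recovered reads, library totals, no filter, and pseudocounts of 5 and 0.5. Others were values relative to H3, each replicate left out, and, without the block, Q replicates 2 and 3 of RNA pol II as 1 library.

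Members and lists were chosen with earlier results of these data known. Besides the members, the text names the 2 nearest windows on each side, the 3 genes most alike in pattern, the list genes called for S5 or S2, and glo1, glo2, sdj1, hsf1, atf1, and pap1. Other called list genes that are named were chosen after their values were seen. The chaperones hsp20, hsp60, and hsp78 were matched to no window by name. Gene models, promoters, and proteins were read from RefSeq ASM294v3 (Biopython 1.88), with strand found by identifier for 6529 windows. Coordinates of windows are those of the files.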

Additional observations from a re-analysis of the deposited data

How the results depend on the processing

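The count of called members over ORF windows was 1 for H3K4me3 and 0 for the other 7 antibodies, and it held in 85 of 89 alternatives. The shorter TSS windows were not among these alternatives. In them, hsp3101, hsp3102, hsp3103, and hsp3105 were each called higher in Q cells for H3K4me3. The share of all TSS windows called was not counted, so no baseline stands beside these calls. Over ORF windows, 19.4% of all windows were called higher in Q cells for H3K4me3. For S5, hsp3102 at the threshold was called with edgeR (count 1) and with library totals (count 1), and leaving out a replicate gave 0 to 1, the 1 without replicate 1. For H2A.Z, 1 member (hsp3102) was called relative to H3. The same-numbered Q and V libraries deviated together in all 3 pairs for H2A.Z only, where the lowest correlation was 0.352, while for S5 the 3 pairs had −0.364, −0.101, and −0.370. Without the replicate block the counts of called members were 1 for H3K4me3 and 0 for S5 and the other antibodies, and those of the redox list stayed at 1 for S5 and 8 for H3K4me3.

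Of the redox list, 1 gene was called for S5, against 4 relative to H3 (ctt1 higher, and trx1, trr1, and sod1 lower in Q cells), 2 with Q replicates 2 and 3 as 1 library and no replicate block, and 1 to 2 with a replicate left out (trx1, lower in Q cells, was added without replicate 2 or 3). For S2 it was 0, against 1 relative to H3 (trx1) and 0 to 1 with a replicate left out (ctt1 without replicate 1). For H3K4me3 it was 8, against 13 relative to H3 and 5 to 9 with a replicate left out (5 without replicate 1). Of the chaperone list, 2 genes were called for S5, against 4 relative to H3, where hsp9 was not among them, and 1 to 2 with a replicate left out (hsp16 was not called without replicate 3). For S2 it was 1, against 0 relative to H3. For H3K4me3 it was 4, against 4 to 6 in the alternatives, with hsf1 added in 5 of them. The cause of these differences was not tested.

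Of 485 alternative log2 fold changes of members, 448 stayed on their side of the threshold and within the spread of the replicates, 30 moved further, and 7 passed the threshold, none with a change of sign among called values. Without replicate 3, the S2 values in the TSS table were −0.67 (hsp3105) to 0.61 (hsp3102), chosen after seeing the repeated column. The merging of Q replicates 2 and 3 for the correlations was also chosen after seeing the data. The order of levels per kb was the same in 16 of 16 antibody and state groups with library totals, and in 11 to 13 with a replicate left out. The shallowest library, of H3K9me2, held 856936 reads in ORF windows, which limits what can be seen of small differences for this antibody. The shallowest H3K4me3 library, V replicate 1, held 1700594.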
